A study of Mus musculus with 4 samples.

Results

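The genes described here are 9 that astrocytes use to take up glutamate, to couple to one another and to handle water and ions: Slc1a2, Slc1a3, Glul, Gja1, Gjb6, Aqp4, Slc4a4, Gfap and Ntsr2. They were chosen by name, as a set known from astrocytes, and all 9 were found among the 25567 genes of the 4 count tables. The tables hold single nuclei of adult mouse hippocampus, read with Smart-seq2, in which each well holds a single nucleus and whole transcripts are amplified. The study compared mice with the Fasn-R1812W substitution in the lipid-making enzyme fatty acid synthase with wild-type (WT) mice.

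There were 4 libraries, 1 for each sorting gate and genotype, and all came from animals of 8.5 months. EdU+ Fasn-R1812W and EdU+ WT nuclei were sorted for EdU, a thymidine analogue that enters newly made DNA, from mice injected at 100 mg per kg on 3 days, 2 times a day, with isolation on day 4. NeuN+ Fasn-R1812W and NeuN+ WT nuclei were sorted with an antibody to the neuronal nuclear protein NeuN, and no EdU injection is given for these animals. The number of animals behind a library is not given, no group has a second library, and the substitution itself cannot be seen in gene counts. Values within a gate are therefore set side by side with no test, and the only tests use all 4 libraries together.

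The libraries held 36368990 to 96597804 reads in 384 wells each, beside 382 nuclei per library stated in the design. Nuclei with at least 1000 genes and 50000 reads were kept: 348 in EdU+ Fasn-R1812W, 167 in EdU+ WT, 301 in NeuN+ Fasn-R1812W and 314 in NeuN+ WT. EdU+ WT was the shallowest, with a median of 80771 reads per kept nucleus against 224967 in EdU+ Fasn-R1812W. All 384 well names recur in all 4 libraries, since they are plate positions and not cell barcodes. Levels are CPM (counts per 1e6, over nuclear-encoded genes in pooled nuclei), and ranges in brackets are exact Poisson 95% intervals, which cover counting error only. In pooled nuclei, fewer cells of a type and less RNA per cell cannot be told apart.

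Glutamate released at synapses is cleared mostly by astrocytes through the transporters GLT-1 (Slc1a2) and GLAST (Slc1a3), and glutamine synthetase (Glul) then converts it to glutamine. Astrocytes are joined into networks by gap junctions of connexin 43 (Gja1) and connexin 30 (Gjb6), and their endfeet around vessels hold the water channel aquaporin 4 (Aqp4). Radial glia-like stem cells of the adult dentate gyrus share many of these genes with astrocytes, and GLAST is also known from oligodendrocyte precursors.

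Promoters from RefSeq (GRCm38.p6), running from 250 bases before to 50 bases after a gene's start, were found for 8 of the 9 members, and Slc4a4 had 2. Those of the 3 members that differed between the gates are printed, together with that of Gfap, because its STAT letters recur in Slc1a3 and Ntsr2. Each is given 5′ to 3′ on the gene's strand. Capitals mark TTCNNNGAA, the letters of a STAT site, and TTGGC or its reverse complement GCCAA, an NFI half-site. Both factor families are known for roles in astrocyte genes.
Slc1a3, chr15:8710758-8711057, minus strand: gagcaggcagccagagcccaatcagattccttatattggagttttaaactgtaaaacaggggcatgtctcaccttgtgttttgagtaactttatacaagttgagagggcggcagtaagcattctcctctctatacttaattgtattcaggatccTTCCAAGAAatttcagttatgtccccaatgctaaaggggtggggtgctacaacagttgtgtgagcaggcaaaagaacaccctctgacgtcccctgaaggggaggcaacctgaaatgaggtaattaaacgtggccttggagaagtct
Ntsr2, chr12:16653220-16653519, plus strand: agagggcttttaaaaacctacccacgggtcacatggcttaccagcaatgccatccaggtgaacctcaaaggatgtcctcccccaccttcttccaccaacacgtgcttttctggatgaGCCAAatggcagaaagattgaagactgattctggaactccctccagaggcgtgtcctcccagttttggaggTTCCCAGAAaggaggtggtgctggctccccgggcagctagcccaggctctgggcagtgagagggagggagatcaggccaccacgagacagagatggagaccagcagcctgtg
Gfap, chr11:102897151-102897450, minus strand: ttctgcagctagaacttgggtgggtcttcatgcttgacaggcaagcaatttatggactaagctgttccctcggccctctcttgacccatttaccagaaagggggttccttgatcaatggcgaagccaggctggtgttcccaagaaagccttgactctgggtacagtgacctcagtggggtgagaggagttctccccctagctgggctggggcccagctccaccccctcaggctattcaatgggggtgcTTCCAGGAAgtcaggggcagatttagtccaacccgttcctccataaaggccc
Slc4a4 first promoter, chr5:88887010-88887309, plus strand: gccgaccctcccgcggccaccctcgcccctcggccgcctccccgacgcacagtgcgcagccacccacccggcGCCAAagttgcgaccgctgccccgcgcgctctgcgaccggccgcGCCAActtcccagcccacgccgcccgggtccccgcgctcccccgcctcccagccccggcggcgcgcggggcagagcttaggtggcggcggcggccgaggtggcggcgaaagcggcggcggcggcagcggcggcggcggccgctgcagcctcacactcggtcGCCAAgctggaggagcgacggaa
Slc4a4 second promoter, chr5:89027716-89028015, plus strand: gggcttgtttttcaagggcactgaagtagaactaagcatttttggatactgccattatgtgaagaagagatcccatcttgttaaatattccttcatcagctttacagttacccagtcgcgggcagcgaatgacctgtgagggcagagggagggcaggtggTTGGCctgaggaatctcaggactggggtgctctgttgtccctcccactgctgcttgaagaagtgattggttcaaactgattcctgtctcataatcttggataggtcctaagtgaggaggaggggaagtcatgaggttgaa
The STAT letters stood in the promoters of Slc1a3, Gfap and Ntsr2, 3 of 8 members, and in 8.30% of the 32851 promoters of the same length. The NFI half-site stood in Slc1a2, Glul, Slc4a4 and Ntsr2, 4 of 8 members, against 46.7% of all promoters. Both were searched on both strands, and the matches do not overlap one another. The promoters of Gja1 and Gjb6 held neither run of letters.

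Both glutamate transporters were high in EdU+ nuclei, and Slc1a3 had the largest gate difference of the 9 members. Slc1a3 (ENSMUSG00000005360, chr15:8634124-8710764 of GRCm38, minus strand) stood at 694 CPM (688 to 699) in EdU+ Fasn-R1812W, 577 (565 to 590) in EdU+ WT, 38.3 (36.9 to 39.8) in NeuN+ Fasn-R1812W and 123 (120.5 to 126) in NeuN+ WT. Both EdU+ libraries were far above both NeuN+ libraries. With gate and genotype as terms, edgeR's quasi-likelihood test on all 4 libraries gave a log2 difference of 3.18, EdU+ over NeuN+ (Benjamini-Hochberg adjusted p = 0.030). With 1 library left out, 3 libraries leave no residual degree of freedom for both terms, so those fits had gate alone and differ from the 4-library fit in the model as well as in the library. In those fits of gate alone the log2 difference ran from 2.32 to 4.03 and was called in each, with edgeR adjusted p of 0.0096 to 0.032.

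Slc1a2 (ENSMUSG00000005089, chr2:102658659-102790784, plus strand) was high in both gates. Slc1a2 reached 794 CPM (788 to 799.8) in EdU+ Fasn-R1812W and 985 (969 to 1001) in EdU+ WT, against 278 (274 to 281) in NeuN+ Fasn-R1812W and 789 (782 to 796) in NeuN+ WT. The lowest EdU+ library was thus level with the highest NeuN+ library. The log2 difference of 0.89 was not called by edgeR (adjusted p = 0.25), whereas DESeq2 called it (0.91, adjusted p = 0.038). In the fit of gate alone without NeuN+ Fasn-R1812W it was 0.12. Exons of Slc1a2 overlap those of Gm13872 on the opposite strand over 189 bases, and reads of the pair cannot be told apart there.

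Ntsr2, a neurotensin receptor gene enriched in astrocytes, followed Slc1a3. It stood at 182 CPM (179 to 184) in EdU+ Fasn-R1812W and 376 (366 to 386) in EdU+ WT, against 34.6 (33.2 to 36.0) in NeuN+ Fasn-R1812W and 79.6 (77.5 to 81.7) in NeuN+ WT. The gates did not overlap, and WT was the higher library in each. The gate difference was 2.29 on the log2 scale (edgeR adjusted p = 0.017). In fits of gate alone it was not called without NeuN+ Fasn-R1812W (1.75, adjusted p = 0.20) or without NeuN+ WT (2.98, adjusted p = 0.057).

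Glul (ENSMUSG00000026473, chr1:153899944-153909723, plus strand), the gene of glutamine synthetase, differed less. Its levels were 97.5 CPM (95.5 to 99.5) in EdU+ Fasn-R1812W and 50.4 (46.9 to 54.1) in EdU+ WT, against 34.3 (33.0 to 35.7) in NeuN+ Fasn-R1812W and 30.6 (29.3 to 32.0) in NeuN+ WT. Both EdU+ libraries were higher, but the log2 difference of 1.09 was not called (edgeR adjusted p = 0.31). In the fit of gate alone without EdU+ WT it was called, at 1.63 (adjusted p = 0.019). Glul exons overlap Teddm2 on the opposite strand over 116 bases and Mir8114 on the same strand over 93.

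Slc4a4 (ENSMUSG00000060961, chr5:88886818-89239653, plus strand), the gene of the sodium-bicarbonate cotransporter NBCe1, went the other way. It stood at 31.0 CPM (29.9 to 32.1) in EdU+ Fasn-R1812W and 47.2 (43.8 to 50.8) in EdU+ WT, against 113 (110.2 to 115) in NeuN+ Fasn-R1812W and 171 (168 to 174) in NeuN+ WT. The gate difference was -1.88 on the log2 scale (edgeR adjusted p = 0.048). In fits of gate alone it was not called without NeuN+ Fasn-R1812W (-2.18, adjusted p = 0.097) or without NeuN+ WT (-1.56, adjusted p = 0.34).

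**Figure D1:**
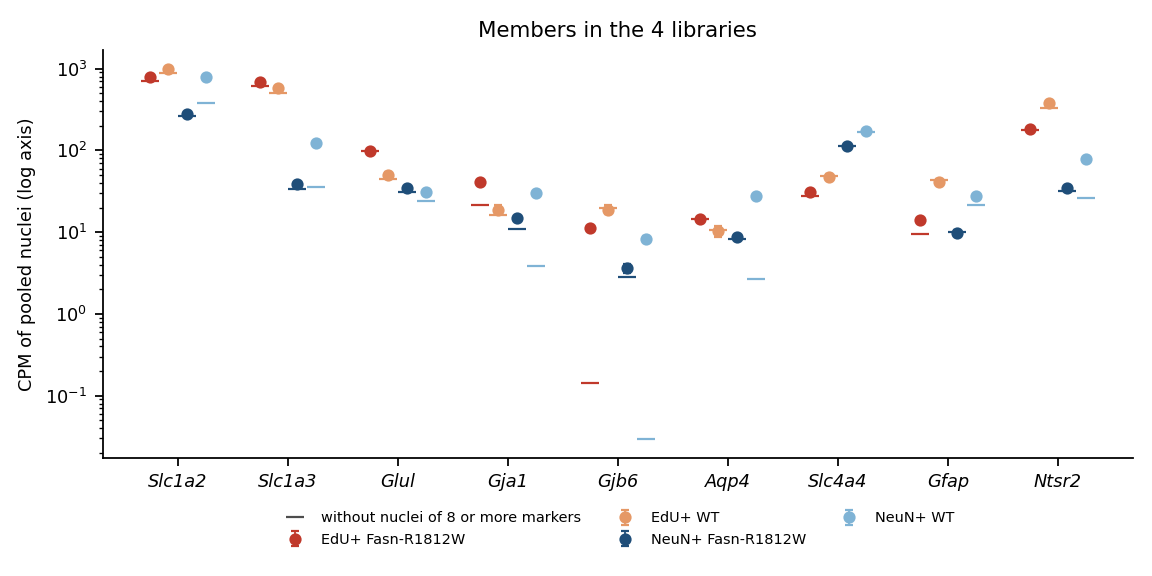
Level of each member in the 4 libraries, in CPM of pooled kept nuclei on a log axis. Points are all kept nuclei with exact Poisson 95% intervals, and short bars are the same libraries without nuclei rich in astrocyte markers. Slc1a3 and Ntsr2 were higher in both EdU+ libraries and Slc4a4 in both NeuN+ libraries, while the bars of Gja1, Gjb6 and Aqp4 in NeuN+ WT lie far under their points.

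The coupling, water channel and filament genes were low in both gates, and none was called between them. Gja1 (connexin 43) stood at 41.1 CPM in EdU+ Fasn-R1812W and 18.9 in EdU+ WT, against 14.8 in NeuN+ Fasn-R1812W and 30.4 in NeuN+ WT. Gjb6 (connexin 30) had 11.3 and 18.9 CPM in the EdU+ libraries in the same order, and 3.62 and 8.23 CPM in the NeuN+ libraries. Their log2 differences were 0.37 and 1.40 (edgeR adjusted p = 0.87 and 0.56). Aqp4 had 14.7 CPM in EdU+ Fasn-R1812W and 10.2 in EdU+ WT, against 8.63 in NeuN+ Fasn-R1812W and 27.3 in NeuN+ WT. Gfap, the gene of the astrocyte filament protein, had 14.3 CPM in EdU+ Fasn-R1812W and 41.5 in EdU+ WT, against 9.86 in NeuN+ Fasn-R1812W and 28.0 in NeuN+ WT. For both the groups overlapped, with log2 differences of -0.35 for Aqp4 and 0.53 for Gfap (adjusted p = 0.91 and 0.76).

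Of the 9 members, 2 were called higher in EdU+ and 1 lower, against 3.9% higher and 2.82% lower among the 16015 genes tested. The median of the members was 0.89 on the log2 scale beside -0.12 over all genes tested. Animals of the EdU+ gate were injected and those of the NeuN+ gate are not said to have been, so gate and injection cannot be told apart. The fit has 1 residual degree of freedom, and with a filter of 2000 genes and 100000 reads, which kept 5 EdU+ WT nuclei, no member was called (edgeR adjusted p = 0.9996 for each).

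Per kb of exon, the scale on which genes can be set against each other, 4 members carried the set in EdU+ nuclei. Slc1a3, Slc1a2, Ntsr2 and Glul held 81.2, 60.5, 58.2 and 29.3 CPM per kb in EdU+ Fasn-R1812W, and the other 5 members held 2.36 to 4.22. In EdU+ WT, Ntsr2 came first at 121 CPM per kb, followed by Slc1a2 at 75.0, Slc1a3 at 67.6 and Glul at 15.2, and the others held 1.64 to 9.84. In the NeuN+ libraries Slc1a2 led, at 21.1 CPM per kb in Fasn-R1812W and 60.1 in WT. Slc4a4 followed Ntsr2 there, at 10.4 and 15.8 CPM per kb, whereas it held 2.86 in EdU+ Fasn-R1812W and 4.37 in EdU+ WT.

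Detection was compared after thinning each nucleus to 50000 reads. Slc1a2 had a read in 71.8% of EdU+ Fasn-R1812W and 61.7% of EdU+ WT nuclei, and in 64.5% of NeuN+ Fasn-R1812W and 72.9% of NeuN+ WT nuclei. Slc1a3 had one in 63.2% and 49.1% of EdU+ nuclei, but in 14.6% and 16.6% of NeuN+ nuclei, in the same order of genotypes. Slc4a4 was the reverse, at 9.77% and 5.99% of EdU+ and 27.2% and 45.2% of NeuN+ nuclei. Gja1, Gjb6, Aqp4 and Gfap were read in 0.318% to 6.31% of nuclei in all 4 libraries. Before thinning, the share for Slc1a2 was 91.4% in EdU+ Fasn-R1812W and 63.5% in EdU+ WT, a wider gap than at an equal number of reads. Genes per kept nucleus were not matched, and their median was 3006 in EdU+ Fasn-R1812W and 1298 in EdU+ WT.

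Clusters within each gate were built without the 9 members, so their levels there were not used to form the clusters. No EdU+ cluster met the rule for an astrocyte-like name. The closest was a cluster of 20 EdU+ Fasn-R1812W and 11 EdU+ WT nuclei, named radial glia-like stem cell-like, in which the astrocyte list came second with a mean log2 fold of 1.03 against 1.95. It was led by genes of DNA replication and division such as Rrm2 and Top2a, and by the stem cell marker Thrsp. The name rests on 3 markers of the stem cell list, the least the rule allows, against 12 in each oligodendrocyte precursor-like cluster. Oligodendrocyte precursor-like clusters held 184 and 122 nuclei, neuroblast-like 23 and 14, microglia-like 56 and 7, and leukocyte-like 14 and 0. A further cluster of 51 and 13 nuclei, highest for precursor markers, kept no name.

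Among EdU+ classes, both transporters were highest in the radial glia-like cluster. Slc1a2 stood at 1982 CPM in EdU+ Fasn-R1812W and 3514 in EdU+ WT, and Slc1a3 at 2188 and 2679. Gja1 was 431 and 47.7 CPM, Ntsr2 399 and 1530, and Gfap 91.0 and 125. Gjb6 had no read in any of the 31 nuclei, a limit of 0.575 CPM in EdU+ Fasn-R1812W and 2.81 in EdU+ WT at 3 reads per library. These levels rest on few nuclei: 1 nucleus gave 49.0% of the Gja1 reads in EdU+ Fasn-R1812W and 100% in EdU+ WT. Slc1a2 stood at 6787 and 9632 CPM in single nuclei of EdU+ Fasn-R1812W, and at 8557 and 7706 CPM in those of EdU+ WT. The median nucleus of the cluster had a summed member level of 3072 CPM in Fasn-R1812W and 4026 in WT. In precursor-like nuclei that median was 1459 and 1152 CPM. Summed over the 9 members, the cluster exceeded all other nuclei of its library by 1.63 on the log2 scale in EdU+ Fasn-R1812W and by 2.27 in EdU+ WT. No cluster took that name with 10 principal components, at a resolution of 0.5 or with the filter of 300 genes and 20000 reads.

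Oligodendrocyte precursor-like nuclei carried the transporters too, with lower pooled levels of Gja1 and Gfap than radial glia-like nuclei. Slc1a2 was 1018 CPM in EdU+ Fasn-R1812W and 849.5 in EdU+ WT, Slc1a3 906 and 447, and Ntsr2 278 and 369. Slc1a2 was read in 80.4% and 65.6% of these nuclei after thinning, and Slc1a3 in 72.8% and 51.6%. By contrast Gja1 was 9.70 and 22.4 CPM and Aqp4 18.6 and 14.8, and Gfap was 17.4 and 45.0. The contrast with radial glia-like nuclei in Gja1 and Gfap rests on few nuclei. Only 3 nuclei of EdU+ WT had any Gja1 read, and 1 of them held 81.0% of the reads. Single radial glia-like nuclei of EdU+ Fasn-R1812W held Gfap at 641 and 967 CPM. The precursor-like class was the most numerous, with 52.9% of EdU+ Fasn-R1812W and 73.1% of EdU+ WT nuclei. Neuroblast-like nuclei, the young neurons of the gate, held Slc1a2 at 866 CPM in Fasn-R1812W and 1009 in WT and Slc1a3 at 645 and 212.

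Glul had another distribution. In the microglia-like cluster it stood at 337 CPM in EdU+ Fasn-R1812W, the highest class there, and at 134 CPM in EdU+ WT, with a read in 46.4% and 57.1% of thinned nuclei. Radial glia-like nuclei held 65.0 CPM in Fasn-R1812W and 157 in WT, the highest class of that library, and precursor-like nuclei 47.3 and 29.97. The order of classes in WT rests on few nuclei, since 1 radial glia-like nucleus held Glul at 1347 CPM. The microglia-like level of WT came from 7 nuclei. It was 53.1 CPM with 30 principal components, 9.88 with 10, and 248 with the filter of 300 genes and 20000 reads. In Fasn-R1812W the microglia-like level was 336, 481 and 508 CPM under those settings. The share of microglia-like nuclei was 16.1% (exact Clopper-Pearson interval 12.4 to 20.4) in EdU+ Fasn-R1812W and 4.19% (1.70 to 8.45) in EdU+ WT. It depended on how nuclei were filtered and clustered. With the filter of 300 genes and 20000 reads it was 7.98% (30 of 376) in Fasn-R1812W and 7.67% (27 of 352) in WT, and with 10 principal components 4.60% (16 of 348) and 1.80% (3 of 167). The part of these nuclei in the pooled Glul level was not tested.

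The leukocyte-like cluster was used as a background, since blood cells should lack these transporters. Its 14 nuclei, all of EdU+ Fasn-R1812W, held Slc1a2 at 5.10 CPM and Slc1a3 at 2.87 CPM from a median of 734185 reads per nucleus. Yet a read of Slc1a2 was found in 42.9% of them after thinning (interval 17.7 to 71.1), of Slc1a3 in 14.3% and of Ntsr2 in 21.4%. Stray reads were not measured this way in the NeuN+ libraries, whose median depths were 175328 reads in Fasn-R1812W and 213337 in WT. Shares in NeuN+ classes at or under these are therefore not read as expression. Slc4a4, Gja1, Gjb6 and Aqp4 were found in 0 of 14 after thinning, which allows a share of up to 21.4%, taking 3 nuclei as the limit for a count of 0.

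**Figure D2:**
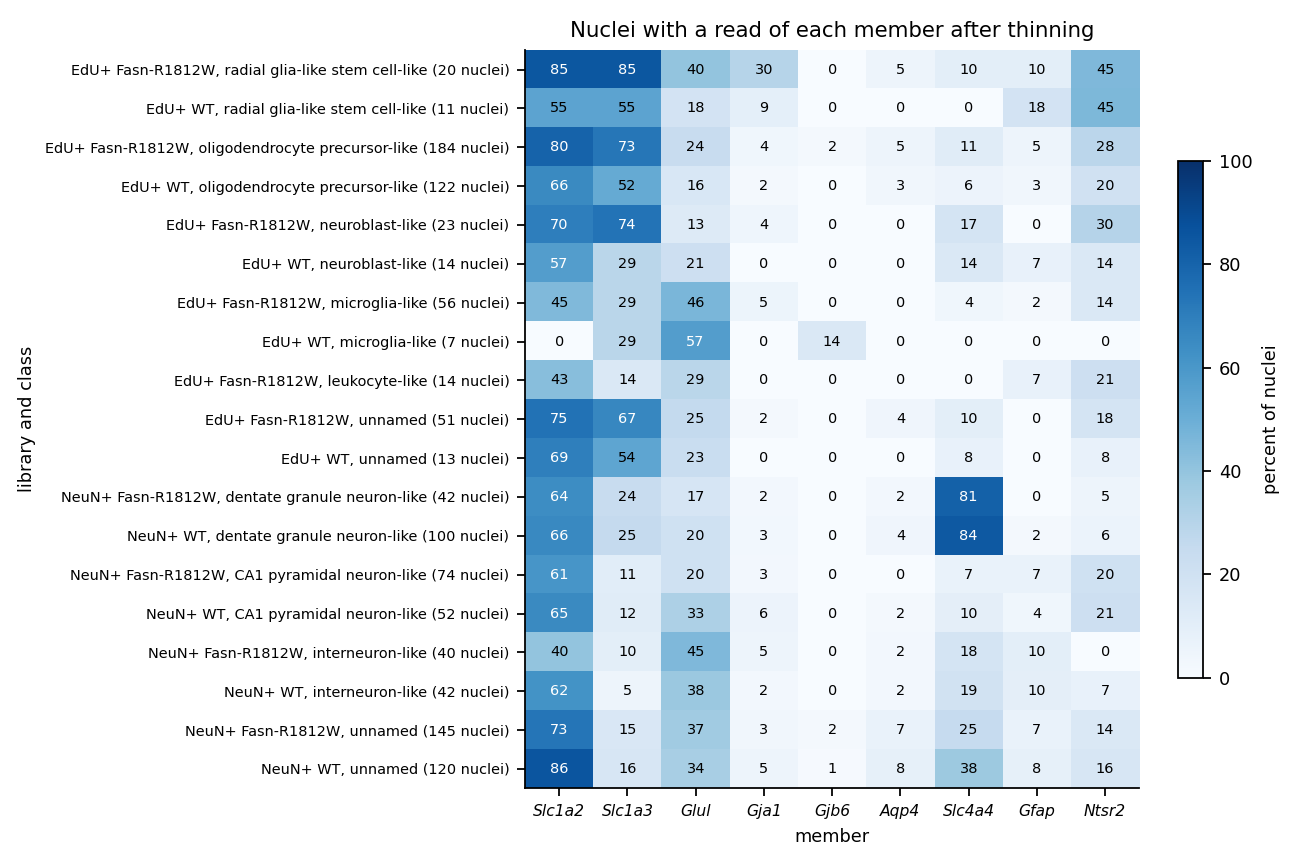
Percent of nuclei with a read of each member after thinning to 50000 reads, by library and class, with the number of nuclei in brackets. Slc1a2 was found in most classes of both gates, Slc1a3 mainly in EdU+ classes, and Slc4a4 in 81.0% and 84.0% of dentate granule neuron-like nuclei.

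In NeuN+ nuclei, the clearest pattern among the members was Slc4a4 in dentate granule neuron-like nuclei. It stood there at 363 CPM (352 to 374) in Fasn-R1812W and 346 (339 to 354) in WT, against 6.04 (4.85 to 7.43) and 17.9 (15.4 to 20.8) in CA1 pyramidal neuron-like nuclei. A read was found after thinning in 81.0% (interval 65.9 to 91.4) of granule-like nuclei of Fasn-R1812W and 84.0% (75.3 to 90.6) of WT, but in 6.76% and 9.62% of CA1-like nuclei. Median nuclei held 195 and 253 CPM in the granule-like class and 0 in the CA1-like class. Both granule clusters showed it, at 537 CPM in Fasn-R1812W and 413 in WT in the larger and 170.5 and 248 in the smaller. Interneuron-like nuclei stood between, at 26.2 and 41.9 CPM. The class held no nucleus rich in astrocyte markers. With 30 principal components or at a resolution of 0.5 the class was wider, with 80 Fasn-R1812W and 137 WT nuclei, and then held 2 and 4 such nuclei. Its Slc4a4 level was 293 CPM in Fasn-R1812W and 298 in WT under those settings, and 295 and 301 without the marker-rich nuclei.

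**Figure D3:**
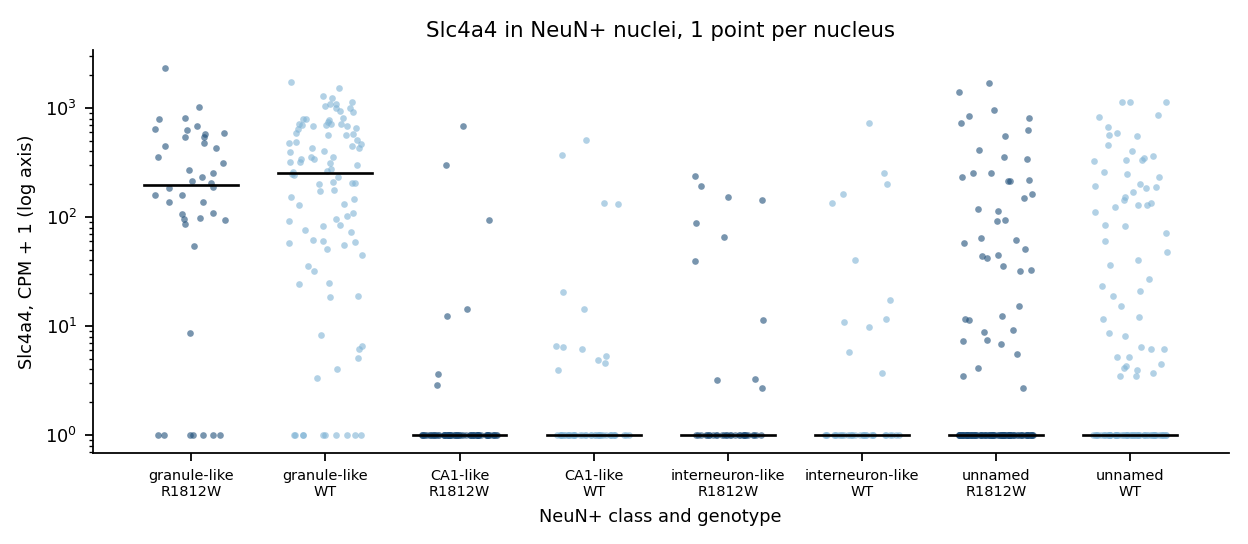
Slc4a4 in single NeuN+ nuclei by class and genotype, as CPM plus 1 on a log axis, with black bars at the median. Granule-like nuclei of both genotypes lie mostly above 100 CPM, and the medians of the other classes lie at 0.

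Several of the other members had shares at or under the leukocyte-like ones in named neurons. Slc1a2 was 131 CPM in Fasn-R1812W and 117 in WT in CA1-like nuclei, 198 and 303 in granule-like and 60.2 and 221 in interneuron-like nuclei, against 5.10 CPM in leukocyte-like nuclei. In interneuron-like nuclei of Fasn-R1812W the level and the share go opposite ways against the leukocyte-like ones, since the share was 40.0%, and no order is read there. It was higher still in some clusters with no name: 1331 and 1419 CPM in 1 that scored highest for subicular or entorhinal neurons and 1743 and 1278 in 1 led by Ccn2. Slc1a3 was 7.87 and 11.9 CPM in CA1-like nuclei and 4.08 and 6.57 in interneuron-like nuclei, with shares at or under the leukocyte-like one. In granule-like nuclei it was 112 and 59.3 CPM, read in 23.8% and 25.0% of nuclei. Ntsr2 was 44.3 and 68.7 CPM in CA1-like nuclei with shares at or under the leukocyte-like one, and 0 and 0.445 in interneuron-like nuclei. Glul was read in 45.0% and 38.1% of interneuron-like nuclei.

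Reads of the set were most concentrated in few nuclei in NeuN+ WT, and less so in NeuN+ Fasn-R1812W. The 10 wells with most held 30.8% of member reads in NeuN+ Fasn-R1812W and 54.97% in NeuN+ WT, and 50% of the reads lay in 26 and 5 wells. Without the nuclei rich in astrocyte markers, described next, the order turned, to 28.7% in Fasn-R1812W and 15.4% in WT. In the EdU+ libraries the 10 wells held 23.9% in Fasn-R1812W and 37.4% in WT, and 50% of the reads lay in 39 and 19 wells. Gjb6 was the extreme, with 98.6% of its reads in 1 well of EdU+ Fasn-R1812W, 99.6% in EdU+ WT, 78.0% in NeuN+ Fasn-R1812W and 99.7% in NeuN+ WT. Pooled levels of Gjb6 are thus mostly those of single nuclei.

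Astrocyte markers outside the set were counted per nucleus, from a list of 20, each scored present at 3 or more reads after thinning. A threshold of 8 markers, chosen after the values were seen, picked out 11 EdU+ Fasn-R1812W, 5 EdU+ WT, 2 NeuN+ Fasn-R1812W and 4 NeuN+ WT nuclei. In the NeuN+ libraries a gap lay below it: the 2 Fasn-R1812W nuclei had 10 and 13 markers and no other had above 6, and the 4 WT nuclei had 10 to 16 and no other above 5. All 6 fell in the same cluster with no name. They had 2 to 8 of the 9 neuronal markers at 3 or more reads, and the median NeuN+ nucleus had 8.

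The marker-rich NeuN+ nuclei carried most of the set at once. In NeuN+ WT they held 6 to 7 of the 9 members at 3 or more thinned reads, and in NeuN+ Fasn-R1812W 8 and 5. Slc1a2 was 2358 and 1368 CPM in the Fasn-R1812W nuclei, against 8677, 39549.8, 22251 and 3398 CPM in those of WT. The same WT nuclei held Gja1 at 1285, 471, 3237 and 372 CPM and Aqp4 at 305, 0, 4128 and 2118 CPM. Together they were 49.6% of all member reads of NeuN+ WT but 2.14% of its total reads, whereas the 2 of NeuN+ Fasn-R1812W were 6.41% of member reads and 0.713% of total reads. By member, the 4 WT nuclei held 90.3% of Aqp4, 87.6% of Gja1, 71.8% of Slc1a3, 68.2% of Ntsr2 and 52.9% of Slc1a2 reads, but 2.88% of Slc4a4 reads.

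**Figure D4:**
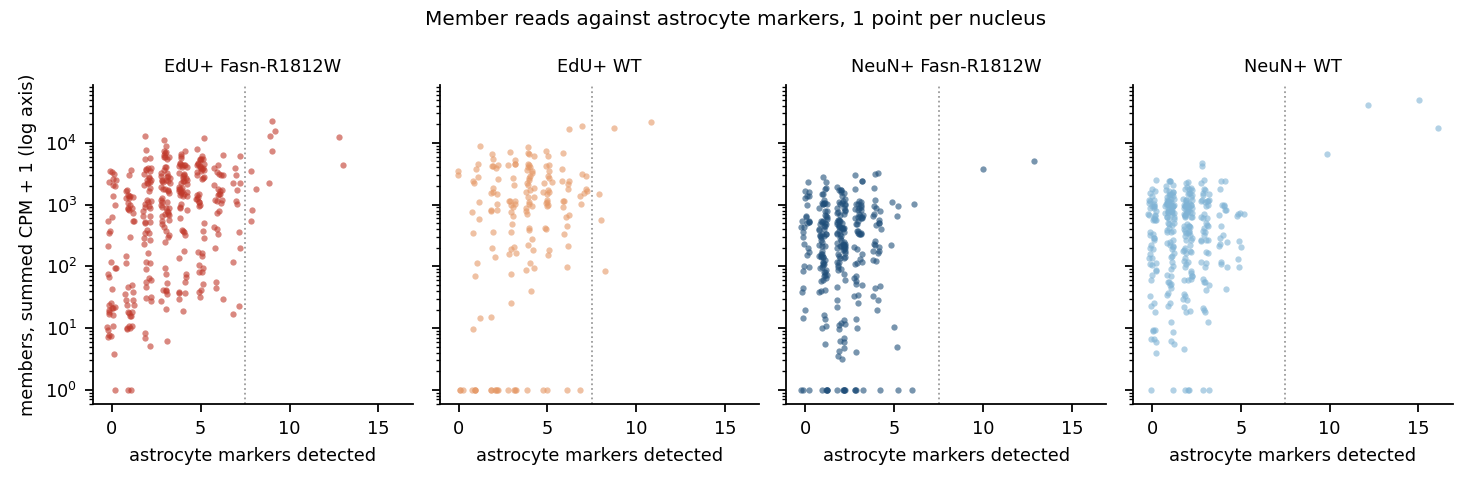
Summed level of the 9 members, as CPM plus 1 on a log axis, against the number of 20 other astrocyte markers detected in the same nucleus, with 1 point per kept nucleus and a dotted line at the threshold of 8 markers. The 2 NeuN+ Fasn-R1812W and 4 NeuN+ WT nuclei right of the line stand apart from all others of their libraries, and the EdU+ libraries show no such gap.

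EdU+ nuclei rich in astrocyte markers were different in make-up. Of 11 in EdU+ Fasn-R1812W, 4 were radial glia-like, 6 precursor-like and 1 had no name, and of 5 in EdU+ WT, 2 were radial glia-like and 3 precursor-like. The 4 radial glia-like ones of EdU+ Fasn-R1812W held Gja1 at 863 to 3565 CPM, and in the other 7 it was 0 to 26.7 CPM. None of the 5 EdU+ WT nuclei had a read of Gjb6, Aqp4, Slc4a4 or Gfap. In EdU+ nuclei the marker-rich ones held 14.1% of member reads in Fasn-R1812W and 14.9% in WT.

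Without the marker-rich nuclei the gate differences of Slc1a2, Slc1a3 and Ntsr2 were wider. Slc1a2 was then 697 CPM in EdU+ Fasn-R1812W and 874 in EdU+ WT, against 264 in NeuN+ Fasn-R1812W and 380 in NeuN+ WT, with a log2 difference of 1.27 that was not called (edgeR adjusted p = 0.062). Slc1a3 was 618 CPM in EdU+ Fasn-R1812W and 501 in EdU+ WT, against 33.8 in NeuN+ Fasn-R1812W and 35.4 in NeuN+ WT, with a log2 difference of 3.98 (edgeR adjusted p = 0.0085). Ntsr2 was 179 and 327 CPM in EdU+, against 31.5 and 25.9 CPM in NeuN+, with a difference of 3.05 (adjusted p = 0.020). Aqp4 changed sign, to 1.38, and remained uncalled (adjusted p = 0.62), and Slc4a4 just missed the threshold (-1.94, adjusted p = 0.053).

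Between genotypes, NeuN+ nuclei of Fasn-R1812W had lower pooled levels of 8 of the 9 members than those of WT with all kept nuclei, and of 4 of the 9 without the marker-rich nuclei. With all kept nuclei the log2 ratio, Fasn-R1812W over WT, was -1.50 for Slc1a2, -1.66 for Slc1a3, -1.56 for Aqp4, -1.42 for Gfap and -1.18 for Ntsr2, and 0.16 for Glul. The median over the 9 members was -1.18, beside 0.022 over the 10895 genes that passed a filter of 10 CPM and a read in 10% of nuclei. Of the 5 members that passed that filter, 3 were at least 2-fold lower (Slc1a2, Slc1a3 and Ntsr2) and 0 at least 2-fold higher, against 3.03% and 3.17% of genes. Over all 9 members the counts were 5 lower and 0 higher, and without the marker-rich nuclei 1 lower and 3 higher. The share of all genes is not given for these counts, so no weight is put on them. Without those nuclei the 1 lower was Gfap and the 3 higher were Gja1, Gjb6 and Aqp4, and none of these passed the filter. Gjb6 then had 199 reads in Fasn-R1812W, 198 of them in 1 well, and 2 in WT. The 5 members that passed ran from -0.60 for Slc4a4 to 0.36 for Glul, so none differed 2-fold.

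Without the marker-rich nuclei the median ratio in NeuN+ was 0.28. Slc1a3 was then 33.8 CPM in Fasn-R1812W and 35.4 in WT, a ratio of -0.07, and Aqp4 was 8.16 and 2.71 CPM, a ratio of 1.31. Slc1a2 kept part of its difference, at 264 and 380 CPM and a ratio of -0.52, and Gfap did too, at 9.93 and 21.4 CPM and a ratio of -1.04. The summed level of the 20 astrocyte markers was 680 CPM in Fasn-R1812W and 1225 in WT with all nuclei, and 628 and 545 without the marker-rich ones. Those nuclei were picked by these same markers, so a fall of this sum was set by the choice. Every marker of the list had a read in both NeuN+ libraries. How many such nuclei a library holds cannot be told apart from genotype with 1 library each.

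**Figure D5:**
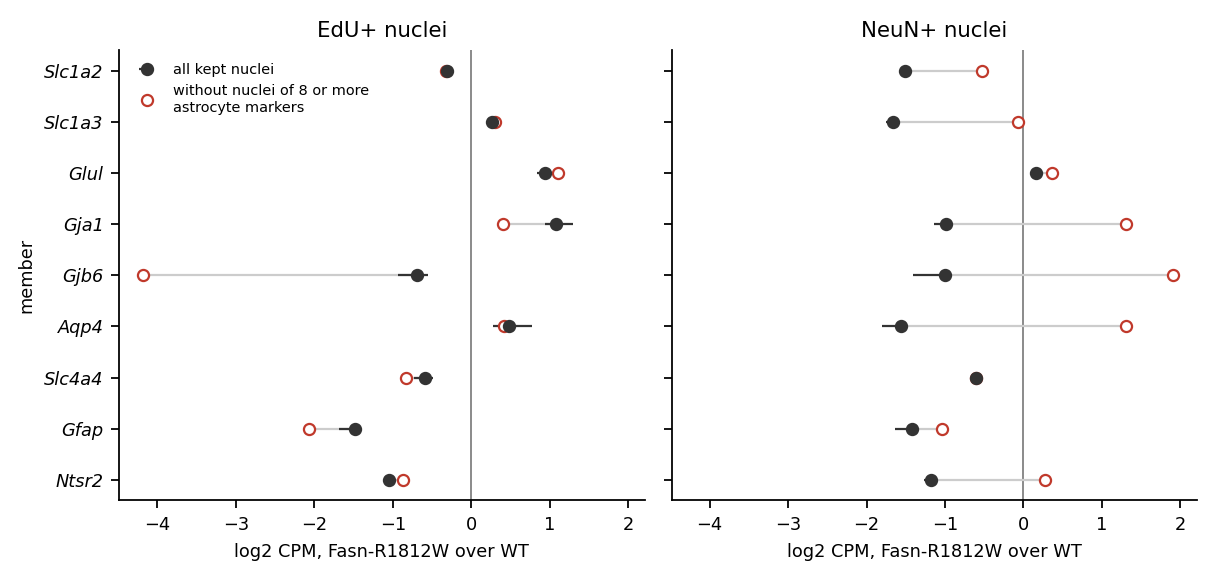
Log2 ratio of Fasn-R1812W over WT for each member in EdU+ (left) and NeuN+ (right) nuclei, with all kept nuclei as filled points with counting intervals and without nuclei of 8 or more astrocyte markers as open points. In NeuN+ nuclei the ratios of Gja1, Gjb6, Aqp4 and Ntsr2 crossed 0 when those nuclei were left out, and in EdU+ nuclei Gjb6 moved most.

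The NeuN+ difference of Slc4a4 had another companion. Its ratio was -0.60 with and without the marker-rich nuclei, and granule-like nuclei were 14.0% (interval 10.2 to 18.4) of the Fasn-R1812W library and 31.8% (26.7 to 37.3) of the WT library. With 30 principal components or at a resolution of 0.5 these shares were 26.6% and 43.6%. Their part in the ratio was not tested. Within granule-like nuclei the levels were 363 CPM in Fasn-R1812W and 346 in WT. Outside that class they were 93.5 and 108 CPM in clusters with no name.

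In EdU+ nuclei the members went both ways between genotypes. Glul and Gja1 were higher in Fasn-R1812W, with ratios of 0.94 (counting interval 0.84 to 1.06) and 1.08 (0.95 to 1.30), and Gfap and Ntsr2 were lower, at -1.48 (-1.68 to -1.40) and -1.05 (-1.09 to -1.01). The median was -0.31, beside 0.084 over 9193 genes, and 6 of the 9 members passed the filter. Without its top well in each library the ratio of Gja1 was 2.73 and that of Aqp4 2.51, against 1.08 and 0.48 with it. Of the 6 that passed, 1 was at least 2-fold higher (Gja1) and 1 lower (Ntsr2), against 17.3% and 8.05% of genes. Gfap was at least 2-fold lower but did not pass. After thinning, Gja1 had a read in 5.17% (interval 3.09 to 8.05) of Fasn-R1812W and 1.80% (0.37 to 5.16) of WT nuclei. Before thinning, at unequal depth, the shares were 12.4% and 1.80%. Gja1 thus passed the filter only through the library where it was higher, and no weight is put on its count. The nucleus filter removed most wells of EdU+ WT, and with a filter of 300 genes and 20000 reads, which kept 376 Fasn-R1812W and 352 WT nuclei, the median was 0.20 and the ratio of Ntsr2 was -0.42. Within precursor-like nuclei, Slc1a3 was 906 CPM in Fasn-R1812W and 447 in WT and Ntsr2 was 278 and 369. The size of the Slc1a3 gap depended on the settings. In the same order it was 831 and 718 CPM with the filter of 300 genes and 20000 reads. At a resolution of 2 it was 644 and 493 CPM, and with 10 principal components 715 and 400 CPM.

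Over both gates, no member was called between genotypes. edgeR's quasi-likelihood test called 0% of 16015 genes higher and 0% lower in Fasn-R1812W (239 had an unadjusted p under 0.05), and DESeq2 called 46 higher and 8 lower, none of them a member. Their log2 differences ran from -1.50 for Gfap to 0.58 for Glul (edgeR adjusted p = 0.9999 for each). Slc1a2, Gjb6, Slc4a4, Gfap and Ntsr2 had lower levels in the Fasn-R1812W library of both gates. The share of all genes lower in both gates is not given here, so no weight is put on their number. Without the marker-rich nuclei the NeuN+ ratios of Gjb6 and Ntsr2 were 1.91 and 0.28.

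Other genes of the same pathways were taken from 7 lists of 79 genes, of which 71 were tested between the gates. In all, 12 were called higher in EdU+ and 4 lower, beside 3.9% higher and 2.82% lower of the 16015 genes tested, and their median difference was 0.58 beside -0.12 over all genes. No gene of any list was called between genotypes, where the median was -0.19. Of 14 transport genes (median between gates 1.08) 1 was called, Slc38a3, a glutamine transporter of astrocytes, at 204 CPM in EdU+ Fasn-R1812W and 329 in EdU+ WT, against 8.52 and 12.8 CPM in the NeuN+ libraries in the same order (log2 4.61, edgeR adjusted p = 0.0054). The neuronal and glial transporter Slc1a1 and the amino acid transporter Slc38a2 were not called, with differences of 0.58 and 0.97. Of 10 genes of glutamate metabolism (median -0.81), 2 were called higher, Glud1 (1.80) and Gpt2 (2.41), and 2 lower, among them Gad2 (-2.54), while Gad1 was not called (-0.57). Of 8 receptor genes (median -0.06), Grm5 was called lower (-2.00), and Grm3 (-1.01), P2ry1 (4.85) and S1pr1 (1.23) were not called.

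Of 15 genes of potassium, bicarbonate and water handling (median -0.32), 3 were called higher and 1 lower. Those higher included the potassium channel genes Kcnj10 (4.23, edgeR adjusted p = 0.0063) and Kcnj16 (6.71), and the 1 lower was the anion exchanger gene Slc4a3 (-2.04). Atp1b2 (0.85), Slc4a7 (-1.03) and Slc4a10 (-1.28), the last 2 relatives of Slc4a4, were not called. Atp1b2 and S1pr1 are also in the list of 20 astrocyte markers. Of 8 connexin and junction genes (median -0.02) only Gjc3, an oligodendrocyte lineage connexin, was called higher, at 6.60, with 619.9 CPM in EdU+ Fasn-R1812W and 758 in EdU+ WT, against 13.3 and 3.58 CPM in the NeuN+ libraries. Panx1 (1.25), Panx2 (-3.00) and Tjp1 (0.38) were not called.

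Of 7 endfoot genes (median 0.59), Hepacam, a partner of astrocyte junctions, was called higher (3.49), and Dag1 (1.54), Dtna (-0.39), Dmd (0.02) and Agrn (0.47) were not called. Of 9 filament and reactive genes (median 4.39, the value of Vim), 4 were called higher: Vim (4.39), Lgals3, C3 and Lcn2, of which the last 3 are also known from microglia or other myeloid cells. Lcn2 and C3 had 41.6 and 18.0 CPM in EdU+ Fasn-R1812W and 3.79 and 19.1 in EdU+ WT, against no reads of Lcn2 in either NeuN+ library and 0 and 0.0144 CPM of C3. Synm (-0.36), Serpina3n (1.61) and Cd44 (1.89) were not called. Kcnj10, Kcnj16, Slc4a3, Gad2, Hepacam, Lgals3, C3 and Lcn2 are outside the rule for named genes and were picked because they were called.

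The genes whose level followed the members' sum most closely over EdU+ nuclei were Ptprz1, Ptn, Pdgfra, Alcam, Cspg5, Syt11, Tspan7 and Lhfpl3. The measure was the lower of the Pearson r values of the 2 EdU+ libraries, over 348 Fasn-R1812W and 167 WT nuclei and 4568 genes, and it was 0.36 for Ptprz1 and 0.22 to 0.29 for the others. These correlations are weak and are given as a description, since nuclei of a library share its depth and its mix of classes. Slc1a2 and Slc1a3 themselves were both present at 3 or more thinned reads in 91 of 348 EdU+ Fasn-R1812W and 49 of 167 EdU+ WT nuclei, against 19 of 301 NeuN+ Fasn-R1812W and 25 of 314 NeuN+ WT nuclei. In the same order, Slc1a2 was present in 173, 94, 159 and 190 nuclei and Slc1a3 in 151, 76, 29 and 41. Whether the 2 genes were found together more often than these counts alone would give was not tested.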

How the data were processed

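The deposited values were raw counts of reads per gene and well, with no normalization by the authors. Trimmomatic 0.36, STAR 2.5.3a and the build GRCm38.p5 are named, per the submitters' processing notes. For the counting program, annotation and strand setting, the sources used here give nothing. A symbol was found for 25395 of 25567 genes, and positions are from GENCODE M21 on GRCm38. Embryonic samples named in the design were not analysed here.

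Nuclei were kept at 1000 genes and 50000 reads, and counts were summed per library. Log2 ratios within a gate have a prior of 1 CPM and no test. The gate and genotype fit used edgeR 4.0.16 on the 4 summed libraries, with TMM scaling, genes of at least 1 CPM in 2 libraries and calls at an adjusted p under 0.05. DESeq2 1.42.0 was an alternative. No group has a second library, and nothing says that libraries stand for separate animals. The 1 residual degree of freedom of the 4-library fit is the interaction of gate and genotype. Its p-values therefore measure departure from adding the 2 terms, with dispersion shared in part over genes. They do not measure the spread between animals or between like libraries.

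Clusters were made per gate with scanpy 1.11.5 and igraph 0.11.9 (2000 variable genes, 20 principal components, 15 neighbours, resolution 1), without the 9 members, mitochondrial genes and sex-linked genes. A cluster was named from its marker list when the mean log2 fold was at least 1, at least 3 markers were 2-fold up with a read in 30% of nuclei, and no other type had more markers among the top 10 genes by fold. The rule and the threshold of 8 astrocyte markers were set with the data in view. No doublet caller was run. Named genes are the 9 members, up to 4 genes per list by summed CPM and the 8 closest genes; some genes of the lists are not reported here by name. The members and lists were chosen with earlier results of these data known. Python 3.11.15 and R 4.3.3 were used. PCR copies are not separate molecules, so intervals and floors reflect counting alone.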

Additional observations from a re-analysis of the deposited data

Results flagged for a closer look

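Of the 9 members, 3 had genotype ratios of opposite sign in the 2 gates, with counting intervals on opposite sides of 0. The log2 ratio of Fasn-R1812W over WT was 0.26 in EdU+ and -1.66 in NeuN+ nuclei for Slc1a3, 1.08 in EdU+ and -0.99 in NeuN+ nuclei for Gja1, and 0.48 in EdU+ and -1.56 in NeuN+ nuclei for Aqp4. Each gate had 1 library per genotype, and the difference between the gates was not tested. Without the nuclei rich in astrocyte markers, the ratios were 0.30 in EdU+ and -0.07 in NeuN+ for Slc1a3, 0.40 and 1.31 for Gja1, and 0.41 and 1.31 for Aqp4.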

How the results depend on the processing

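The count of genes called between gates was 1076, against 3504 with DESeq2, 1881 with the filter of 300 genes and 20000 reads, 1913 with no nucleus filter, 124 with the filter of 2000 genes and 100000 reads, and 479 to 4754 when 1 library was left out. Those fits have gate alone, since 3 libraries leave no residual degree of freedom for both terms, so library and model change together. Between genotypes it was 0, against 1 without TMM, 3 without a gene filter, 54 with DESeq2 and 2 under the filter of 2000 genes.

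The alternative without nuclei of 8 or more astrocyte markers was chosen after seeing the data. It reversed the NeuN+ median ratio, to 0.28, and there Gja1 (1.31), Gjb6 (1.91), Aqp4 (1.31) and Ntsr2 (0.28). It also reversed Aqp4 between gates (1.38) and Slc1a3 (0.14) and Aqp4 (1.04) between genotypes. The NeuN+ median was -1.06 with the mean CPM per nucleus, -0.97 without each gene's top well and -1.04 after thinning. The EdU+ median was 0.20 with the filter of 300 genes, 0.26 with none, 0.12 without top wells and 3.91 with the filter of 2000 genes.

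That last filter kept 5 EdU+ WT nuclei and moved the median difference of all genes to -1.77 between gates and 1.58 between genotypes. Signs as fitted, not relative to those medians, turned between gates for Slc1a2 (-0.12), Gja1 (-2.57), Gfap (-3.05) and Ntsr2 (-2.33). Between genotypes they turned for Slc1a2 (0.14), Slc1a3 (0.94), Glul (-0.20), Aqp4 (1.95), Slc4a4 (2.59), Gfap (2.01) and Ntsr2 (3.48). Within EdU+ they turned for Gfap (3.91) and Ntsr2 (7.49). Relative to the medians, Slc1a2 stayed above between gates, and Slc1a2 and Slc1a3 stayed below between genotypes. Between genotypes Gja1 was -0.13 with the filter of 300 genes and -0.11 with none.

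With 1 library left out, gate differences in fits of gate alone ran from -0.28 to 0.996 for Gja1, -0.37 to 1.47 for Gfap and -1.18 to 0.51 for Aqp4. Genotype differences come from fits of genotype alone, and with unequal gates left they also carry the gate difference; they ran from -0.24 to 1.27 for Glul, -0.74 to 0.72 for Gja1, -1.84 to 0.64 for Slc4a4, -3.18 to 1.60 for Slc1a3, -2.71 to 0.46 for Ntsr2 and -1.22 to 0.22 for Aqp4. Such fits assume that a lone library varies like the others.

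The radial glia-like ratio in Fasn-R1812W was 1.51 with 30 principal components and 1.61 at a resolution of 2. In WT it was 1.98 at that resolution. Nuclei with at least 3 astrocyte markers are a far wider set, with 215 of 348 Fasn-R1812W and 119 of 167 WT nuclei. Their ratio over the other nuclei was 1.61 in Fasn-R1812W and 0.75 in WT. The top 10 wells held 29.998% of NeuN+ member reads in Fasn-R1812W and 54.3% in WT with no nucleus filter, 18.6% and 40.2% after thinning to 20000 reads, and 28.7% and 15.4% without marker-rich nuclei. The causes were not tested. No paired analysis was possible because the labels give no replicate numbers and 1 library per group; genotype is already a term of the gate fit.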
